A study of Mus musculus with 2 samples.

Results

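Cycling regulatory T cells are T lymphocytes that carry the suppressive programme set by the transcription factor Foxp3 and at the same time transcribe the genes of DNA replication and mitosis. They were taken from droplet-based single-cell RNA sequencing (10x) of tumour-infiltrating cells on day 14. The tumours grew from MC38, a line of mouse colon adenocarcinoma cells. A cell counted as a member when its unique molecular identifiers (UMIs, each standing for 1 captured transcript) held at least 3 of Cd3d, Cd3e, Cd3g and Trac together, at least 1 of Foxp3, none of Cd8a or Cd8b1, under 10 of 5 macrophage genes (C1qa, C1qb, C1qc, Lyz2 and Csf1r) and at least 3 of Mki67, Top2a, Ube2c and Birc5 together. The sum of the last 4 genes is called the cell cycle sum below. Of 9059 cells that passed the filters, 181 were members, 77 of 5001 in the Ifnar1-SA library and 104 of 4058 in the wild-type (WT) library. The members were selected on these UMI sums, so their Foxp3, T cell and cell cycle levels describe the selection.

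The data comprise 1 library from mice of the Ifnar1-SA genotype and 1 from WT mice, both with MC38 tumours and no treatment. Ifnar1 encodes a chain of the receptor for type I interferon, and the labels do not say what SA stands for. In 1 label field the cells are immune cells of the tumour and in another they are CD8 T cells, a name that would exclude regulatory T cells. The sources used here give no strain, age, sex, number of animals per library or sort before loading. With 1 library for each genotype no test between genotypes was possible, no difference below has a replicate check, and all intervals cover counting error only, at 95%.

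Regulatory T cells restrain other lymphocytes through inhibitory receptors such as CTLA-4, consumption of interleukin-2 by the high-affinity receptor chain CD25 (Il2ra) and secreted mediators, and they accumulate in many tumours. When a lymphocyte divides, E2F factors switch on the replication genes of S phase, and the genes of G2 and mitosis follow, many of them through the CHR element in their promoters. Type I interferon signals through IFNAR1 and IFNAR2 to transcription factors that bind the interferon-stimulated response element (ISRE) of genes such as Isg15, Irf7 and Ifit1.

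The members carried the markers of the name they were given. Il2ra had a UMI in 70 of 77 Ifnar1-SA members and in 99 of 104 WT members, and Ctla4 in 75 of 77 and 102 of 104. Ikzf2, which encodes the Helios factor of regulatory T cells, had a UMI in all 77 Ifnar1-SA and all 104 WT members. Foxp3 itself stood at its minimum of 1 UMI in 23 Ifnar1-SA and 33 WT members, with a median of 2 in both libraries. Cd4, which such cells are defined by at the protein level, had a UMI in 42 of 77 Ifnar1-SA and 72 of 104 WT members.

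Members were deep cells. They had a median of 12013 UMIs and 3103 genes in Ifnar1-SA and 12500 UMIs and 3046 genes in WT, against 4700 and 4464 UMIs in non-cycling regulatory T cells, those under the cell cycle minimum. No barcode of a member occurred in both libraries, and 7 barcodes of the kept cells did. Among markers of other cells, Ncr1 and Klrb1c of NK cells, Trdc of gamma-delta T cells, S100a8 and S100a9 of neutrophils and all 5 red cell genes stood at 0 UMIs in the members of both libraries. A count of 0 allows up to 2.79 CPM in Ifnar1-SA and 1.99 CPM in WT, from 3 counts over the members, where CPM are the UMIs of a gene scaled to a common total of the members' UMIs. The B cell list had UMIs in 52 of 77 Ifnar1-SA members (184 CPM) and 63 of 104 WT members (127 CPM), with its defining gene Cd79a at 0 in both. The dendritic cell list had UMIs in 18 Ifnar1-SA members (82.7 CPM) and 30 WT members (47.7 CPM). The tumour and stroma list had them in 19 and 38 members in the same order. Other genes of the CD8, NK and gamma-delta list had UMIs in 5 Ifnar1-SA and 3 WT members. Other genes of the neutrophil and mast cell list had them in 1 and 6. In each library 2 members held 20 to 33 UMIs of Rhox5, a homeobox gene used here as a marker of the tumour cells, while all other members had 0. Those 2 cells held 46706 to 77217 UMIs in Ifnar1-SA and 64624 to 86847 in WT, and they gave 11.5% and 10.0% of all member UMIs. Results that rest on them are given with and without these cells. In the Ifnar1-SA library 8 of 74 members with a UMI of Xist or of a Y-linked gene held Y-linked UMIs only (10.8%, 4.78 to 20.2%, Clopper-Pearson), while WT members held 1 Y-linked UMI in all, in a cell that also held Xist.

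A smaller part of the regulatory T cells was cycling in the Ifnar1-SA library. The share was 17.3% in Ifnar1-SA (77 of 446 cells, 13.9 to 21.1%) and 33.2% in WT (104 of 313 cells, 28.0 to 38.7%), a difference of -16.0 percentage points (Newcombe interval -22.2 to -9.7). The limit of under 10 macrophage UMIs had kept 446 of 664 Foxp3-positive T cells without Cd8 in Ifnar1-SA and 313 of 391 in WT. A limit on UMIs falls more on deep cells, and the cycling share of the cells left out was not tested. Regulatory T cells as a whole were a larger part of the Ifnar1-SA library, with 26.4% of T cells in Ifnar1-SA and 17.6% in WT. The cycling members made up 1.54% of all kept cells in Ifnar1-SA and 2.56% in WT. So the members were fewer per kept cell in the library where regulatory T cells were more.

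The lower cycling share was also present in CD8 T cells, and a difference was not detectable at this depth in conventional CD4 T cells, which lacked Foxp3 and Cd8 and held Cd4. CD8 T cells over the same cell cycle minimum were 16.9% in Ifnar1-SA (122 of 723) and 26.8% in WT (284 of 1060), a difference of -9.9 points (-13.7 to -6.0). In conventional CD4 T cells the shares were 9.87% in Ifnar1-SA (22 of 223) and 8.54% in WT (17 of 199), a difference of 1.3 points (-4.4 to 6.9). The difference between these cell classes in their genotype difference was not tested. Of all cycling cells in the 3 gates, regulatory T cells were 34.8% in Ifnar1-SA and 25.7% in WT.

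**Figure D1:**
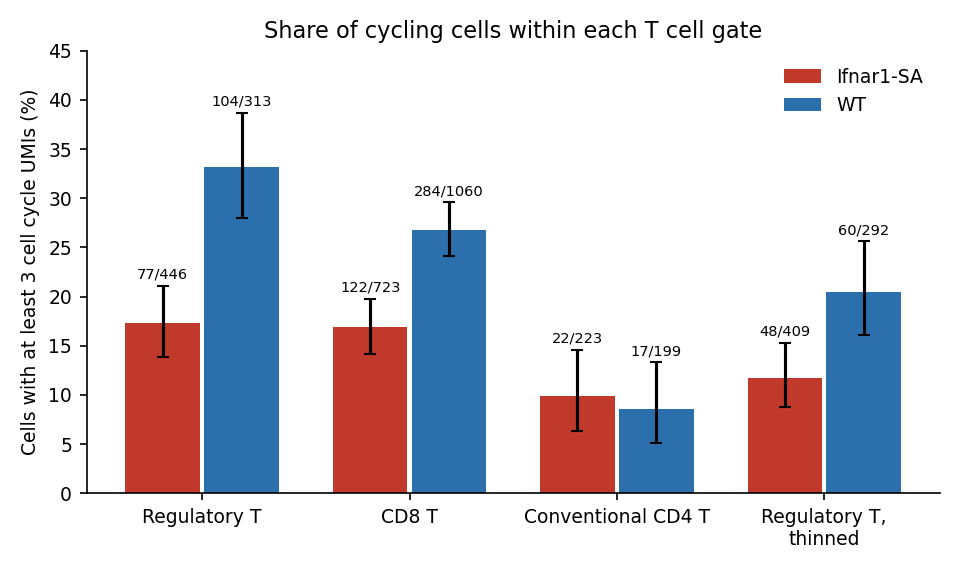
Bars give the percentage of cells in each T cell gate with a cell cycle sum of at least 3, Ifnar1-SA in red and WT in blue, with exact 95% counting intervals and the cells counted above each bar. Among regulatory T cells 17.3% were cycling in Ifnar1-SA and 33.2% in WT, and the gap remained in the last pair, where each cell was thinned to 2000 UMIs.

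The gap was also present at matched depth. After each regulatory T cell was thinned to 2000 UMIs, which left out 37 Ifnar1-SA and 21 WT cells, the share with a cell cycle sum of at least 3 was 11.7% in Ifnar1-SA (8.78 to 15.3%) and 20.5% in WT (16.1 to 25.6%). Macrophages, whose own division was not tested and which are no measure of free RNA here, stood at 4.93% in Ifnar1-SA and 6.07% in WT after the same thinning, at unthinned medians of 8810 and 10655 UMIs. Within regulatory T cells of 3000 to 6000 UMIs the cycling share was 4.46% in Ifnar1-SA and 15.9% in WT, and above 6000 UMIs it was 40.4% and 59.1%. Both strata had the same direction. Among cells with Xist and no Y-linked UMI the cycling share was 16.4% in Ifnar1-SA and 33.0% in WT. Among the 20 Ifnar1-SA cells with Y-linked UMIs only it was 40.0% (8 cells, 19.1 to 63.9%).

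Few members lay just inside the minimum of 3. Cell cycle sums of 1 or 2 were found in 89 Ifnar1-SA and 57 WT regulatory T cells just outside, and sums of 3 or 4 in 9 Ifnar1-SA and 12 WT cells just inside. The median S phase level was 6.37 UMIs per 10000 just outside and 56.5 just inside in Ifnar1-SA, and 11.0 and 42.4 in WT. Far inside, with sums of at least 10, were 57 Ifnar1-SA and 77 WT members.

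Once in cycle, the members of both libraries held similar levels of cell cycle transcripts. These genes are related to the rule, and only their comparison between genotypes is read here. Of the 33 measured genes of the S phase list, 19 were higher in Ifnar1-SA, with a median log2 ratio of 0.07, and of the 39 genes of G2 and mitosis 25 were higher, with a median of 0.05. A gene counted as measured when its CPM averaged 20 or more across the libraries, and 51.2% of all 5301 measured genes had a ratio above 0, with a median of 0.01. A gene is called past 1.5-fold when its whole interval lies outside that fold, which held for 0.509% of measured genes upward (27) and 0.736% downward (39). None of the genes of the S phase or the G2 and mitosis list was past it in either direction. Without the Rhox5 cells the S phase median was 0.04, with 19 of 33 genes higher. That of G2 and mitosis was then 0.12, with 26 of 38 higher.

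By gene, Dut, which removes dUTP before it enters DNA, stood at 527 CPM in Ifnar1-SA members and 559 CPM in WT members, a log2 ratio of -0.09 (-0.24 to 0.07). Tyms, the thymidylate synthase, had 249 and 260 CPM in the same order, and Rrm2, a subunit of ribonucleotide reductase, 232 and 217 CPM. These 3 intervals included 0, and without the Rhox5 cells the log2 ratio of Dut was -0.21 (-0.37 to -0.04). Pcna, the sliding clamp of the replication fork, was 430 CPM in Ifnar1-SA and 364 CPM in WT, a log2 ratio of 0.24 (0.06 to 0.42). For mitosis, Cenpa, the histone of centromeres, had 336 CPM in Ifnar1-SA and 341 CPM in WT, Smc4 of the condensin complex 349 and 282 CPM, and Cks2, a partner of cyclin-dependent kinases, 428 and 487 CPM. Replication-dependent histones, whose transcripts mostly lack poly(A) tails and are caught poorly by this chemistry, had a median of -0.35 over 11 measured genes, with Hist1h2ap at 40.9 CPM in Ifnar1-SA and 84.8 CPM in WT. Histone genes are near-identical copies, so the counts of each are uncertain.

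Both libraries held members that leaned to S phase and members that leaned to G2 and mitosis. More G2 and mitosis than S phase UMIs were held by 54.5% of Ifnar1-SA members (42 of 77, 42.8 to 65.9%) and 51.0% of WT members (53 of 104, 41.0 to 60.9%), a difference of 3.6 points (-10.9 to 17.8). The split is a range and not a cell type, and 20 Ifnar1-SA and 23 WT members lay near the cut. G2 and mitosis UMIs ran from 2 to 251 per cell in Ifnar1-SA, with a median of 59.0, and from 0 to 469 in WT, with a median of 50.5.

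**Figure D2:**
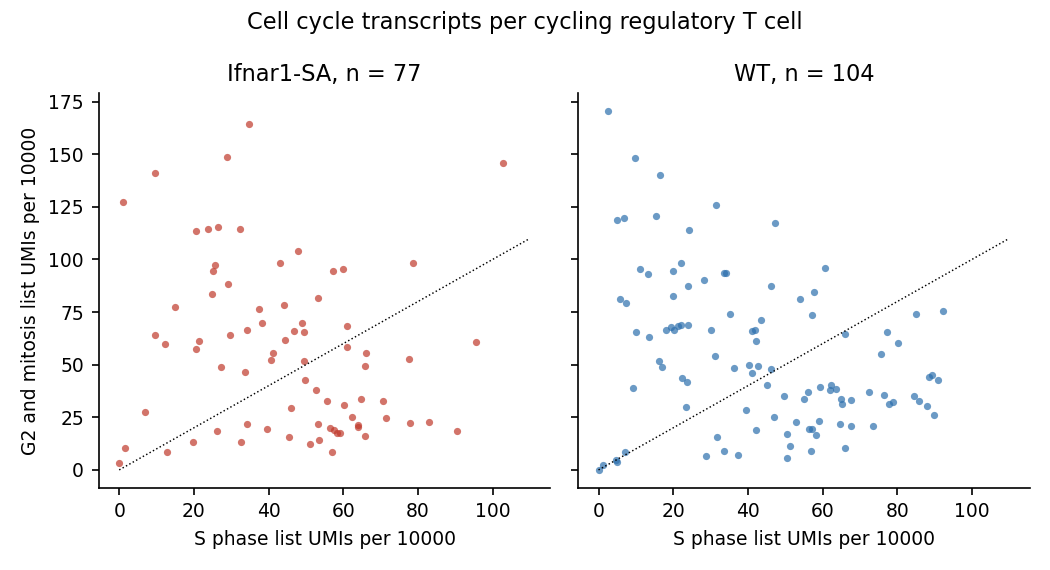
Each point is 1 cycling regulatory T cell, Ifnar1-SA at left and WT at right, with S phase list UMIs per 10000 UMIs of the cell on the x axis and G2 and mitosis list UMIs per 10000 on the y axis. The dotted line marks equal levels, and 42 of 77 Ifnar1-SA and 53 of 104 WT members lie above it.

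Many promoters of the mitotic genes hold a motif that the selection did not use. The CHR core TTTGAA, searched on both strands of RefSeq promoters (GRCm38.p6, 250 bases before to 50 bases after the start), occurred in 27 of the 34 G2 and mitosis genes with a promoter in that table, and in 78.4% of their 37 promoters against 17.9% of all 32851 promoters. In S phase genes it was found in 12.5% of promoters. The promoters of Ube2c, a ubiquitin-conjugating enzyme of mitotic exit, at chr2:164769679-164769978 (plus strand), and of Top2a, the topoisomerase that separates sister chromosomes, at chr11:99024140-99024439 (minus strand), are shown 5′ to 3′ in gene direction with the motif in capitals, since these genes entered the cell cycle sum. Birc5, of the same sum, held no match in this window. A match describes these letters and is not a measured binding site.
Ube2c: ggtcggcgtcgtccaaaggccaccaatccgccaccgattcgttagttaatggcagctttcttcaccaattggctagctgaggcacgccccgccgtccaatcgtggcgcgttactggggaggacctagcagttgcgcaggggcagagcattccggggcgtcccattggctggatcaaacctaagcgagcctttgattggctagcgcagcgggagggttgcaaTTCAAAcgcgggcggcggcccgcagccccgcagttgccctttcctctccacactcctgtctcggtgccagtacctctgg
Top2a: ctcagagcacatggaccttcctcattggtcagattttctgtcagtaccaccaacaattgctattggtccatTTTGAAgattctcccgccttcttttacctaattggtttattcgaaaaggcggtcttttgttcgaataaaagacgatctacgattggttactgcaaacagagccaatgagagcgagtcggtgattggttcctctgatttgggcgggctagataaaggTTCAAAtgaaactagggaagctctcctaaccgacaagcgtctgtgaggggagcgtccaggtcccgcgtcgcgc

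Interferon-inducible genes were higher in cycling regulatory T cells of the Ifnar1-SA library. The type I interferon list had 54 measured genes, and 49 of these had a higher level in Ifnar1-SA (90.7%, against 51.2% of all measured genes). Of these, 10 were higher past 1.5-fold and none lower, and the median log2 ratio was 0.57. All 69 genes of the list, measured or not, together made up 15225 CPM in Ifnar1-SA members and 10787 CPM in WT members. The list was drawn with earlier results of these data known, so its direction is no independent evidence. Without the 4 Rhox5 cells 48 of 51 measured genes were higher, 12 past 1.5-fold, with a median of 0.61. Among members with Xist and no Y-linked UMI the median was 0.55.

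Isg15 (ENSMUSG00000035692, 4:156199424-156200818, minus strand, mm10), a ubiquitin-like modifier of proteins, had 482 UMIs (448 CPM) in Ifnar1-SA members and 331 UMIs (219 CPM) in WT members, a log2 ratio of 1.03 (0.83 to 1.24). It was seen in 63 of 77 Ifnar1-SA and 66 of 104 WT members, and after thinning to 2000 UMIs in 45.5% (34.1 to 57.2%) and 27.9% (19.5 to 37.5%). Irf7 (ENSMUSG00000025498, 7:141262706-141266481, minus strand), the factor that amplifies interferon production, had 129 UMIs (120 CPM) in Ifnar1-SA and 71 UMIs (47.1 CPM) in WT, a log2 ratio of 1.35 (0.92 to 1.79). The members with an Irf7 UMI were 56 of 77 in Ifnar1-SA and 31 of 104 in WT, and 5 WT cells held 47.9% of the WT UMIs. Without the Rhox5 cells the log2 ratio of Irf7 was 1.92 and that of Isg15 1.28. Both genes were thus spread over many Ifnar1-SA members, and the groups of cells overlapped.

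Ifit1, which binds RNA without a host-type cap, stood at 79.9 CPM in Ifnar1-SA (86 UMIs) and 25.8 CPM in WT (39 UMIs), and 5 cells held 75.6% and 82.1% of these UMIs. Ifi206, Ifi203 and Mndal are neighbouring members of the p200 family of interferon-inducible DNA sensors and share sequence, and the annotated spans of Ifi203 and Mndal overlap on the same strand of chromosome 1, so their single counts are uncertain. Ifi206 had 80.9 CPM in Ifnar1-SA and 22.5 CPM in WT, Ifi203 312 and 162 CPM, and Mndal 330.0 and 186 CPM in the same order. Samd9l, a restriction factor of viral translation, had 163 CPM in Ifnar1-SA and 82.2 CPM in WT. Ms4a4b, a membrane protein of T cells, had 290.0 CPM in 60 of 77 Ifnar1-SA members and 121 CPM in 45 of 104 WT members, a log2 ratio of 1.27 with an interval past 1.5-fold. After thinning, 31 of 77 Ifnar1-SA and 26 of 104 WT members held an Ms4a4b UMI, against 7.93% and 3.64% of macrophages.

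With all members, the most abundant genes of the list differed less. Ifi27l2a, of the ISG12 family of interferon-inducible proteins, was the leading transcript with 6029 CPM in Ifnar1-SA and 4274 CPM in WT, a log2 ratio of 0.50 (0.45 to 0.55). Ly6a, the surface antigen Sca-1, had 1686 and 1424 CPM in the same order, Shisa5 674 and 568 CPM, and Bst2, the virion tether, 643 and 513 CPM. Without the Rhox5 cells the log2 ratios were 0.49 for Ifi27l2a, 0.38 for Ly6a and 0.29 for Shisa5. That of Bst2 was then 0.62 (0.44 to 0.79), beside a list median of 0.61. The 5 genes that were not higher were Oas1a, Ifi27, Ifi211, Ifih1 and Lgals3bp, the last with a log2 ratio of -0.02 and, without the Rhox5 cells, 0.44 (-0.25 to 1.12). Among these 5, only for Ifi27 (112 CPM in Ifnar1-SA, 142 CPM in WT, log2 ratio -0.35, -0.68 to -0.02) did the interval stay below 0. Ifitm1, an inhibitor of viral entry, had the largest ratio of the list at 73.4 CPM in Ifnar1-SA and 2.65 CPM in WT, but 1 Ifnar1-SA cell held 69 of its 79 UMIs there. Mx1 and Mx2 were not analysed here.

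Seen per cell, the summed interferon list stood at a median of 145 UMIs per 10000 in Ifnar1-SA members (31.5 to 362) and 101 in WT members (20.3 to 366). The ranges overlapped almost wholly, and the lower quartile of Ifnar1-SA (110) was above the WT median. Non-cycling regulatory T cells held more, with medians of 274 in Ifnar1-SA and 160 in WT. Macrophages, the main other cells of these libraries, also carry Isg15 (a UMI after thinning in 71.9% of Ifnar1-SA and 57.1% of WT macrophages) and Irf7 (70.0% and 54.5%), so they give no background for these genes, and the part of free RNA was not tested. The summed macrophage and MHC class II list was 2187 CPM in Ifnar1-SA members and 1984 CPM in WT members, with medians of 16.1 and 17.0 UMIs per 10000.

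**Figure D3:**
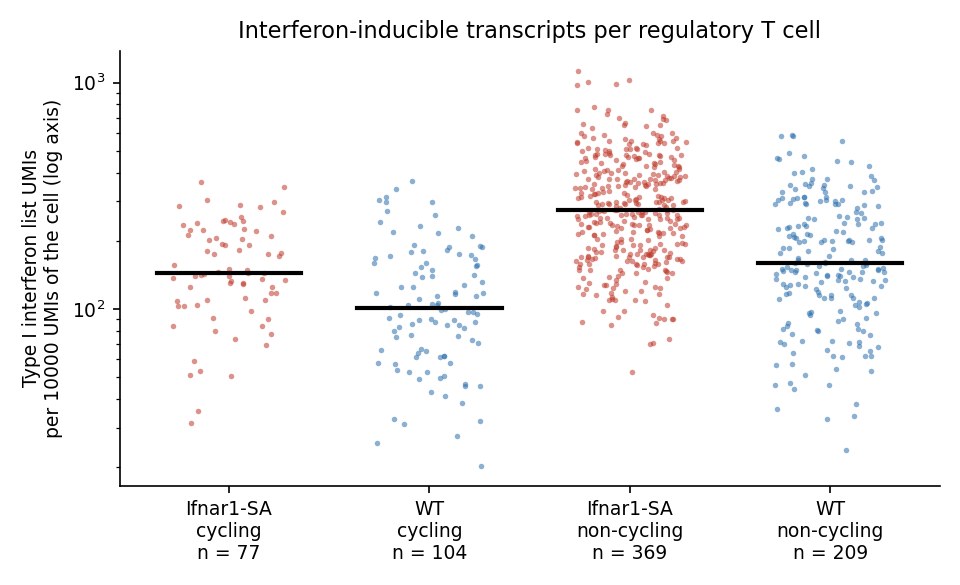
Each point is 1 regulatory T cell, with its type I interferon list UMIs per 10000 UMIs of the cell on a log axis, in cycling and non-cycling cells, Ifnar1-SA in red left of WT in blue. Black lines are medians, 145 and 101 in cycling cells and 274 and 160 in non-cycling cells.

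The list was higher in Ifnar1-SA in non-cycling cells too. In non-cycling regulatory T cells 57 of 62 measured genes were higher in Ifnar1-SA, against 46.1% of all 5061 measured genes there, with a median of 0.56. There 22 were higher past 1.5-fold, which 0.711% of measured genes were upward and 0.356% downward. Over the 54 genes measured in both, the median log2 ratio was 0.57 in cycling and 0.59 in non-cycling cells. The summed list, which its most abundant genes lead, had a log2 ratio of 0.50 (0.47 to 0.53) in cycling and 0.69 (0.67 to 0.72) in non-cycling cells, and the difference between the classes was not tested. With all members the intervals lay apart for 5 genes: Ifi27l2a, Ly6a and Lgals3bp had a smaller ratio in cycling cells, and Ifitm1 and Samd9l a larger one. Without the Rhox5 cells the ratio of Lgals3bp in cycling cells was 0.44 (-0.25 to 1.12) and that of Ly6a 0.38. Samd9l had log2 ratios of 0.98 (0.64 to 1.33) in cycling and 0.22 (-0.02 to 0.46) in non-cycling cells. In cycling CD8 T cells 29 of 46 measured genes were higher (63.0%, against 54.8% of all 5109 measured genes there). The list median there was 0.15, against 0.03 for all measured genes, and Isg15 had a log2 ratio of -0.20 (-0.43 to 0.02).

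**Figure D4:**
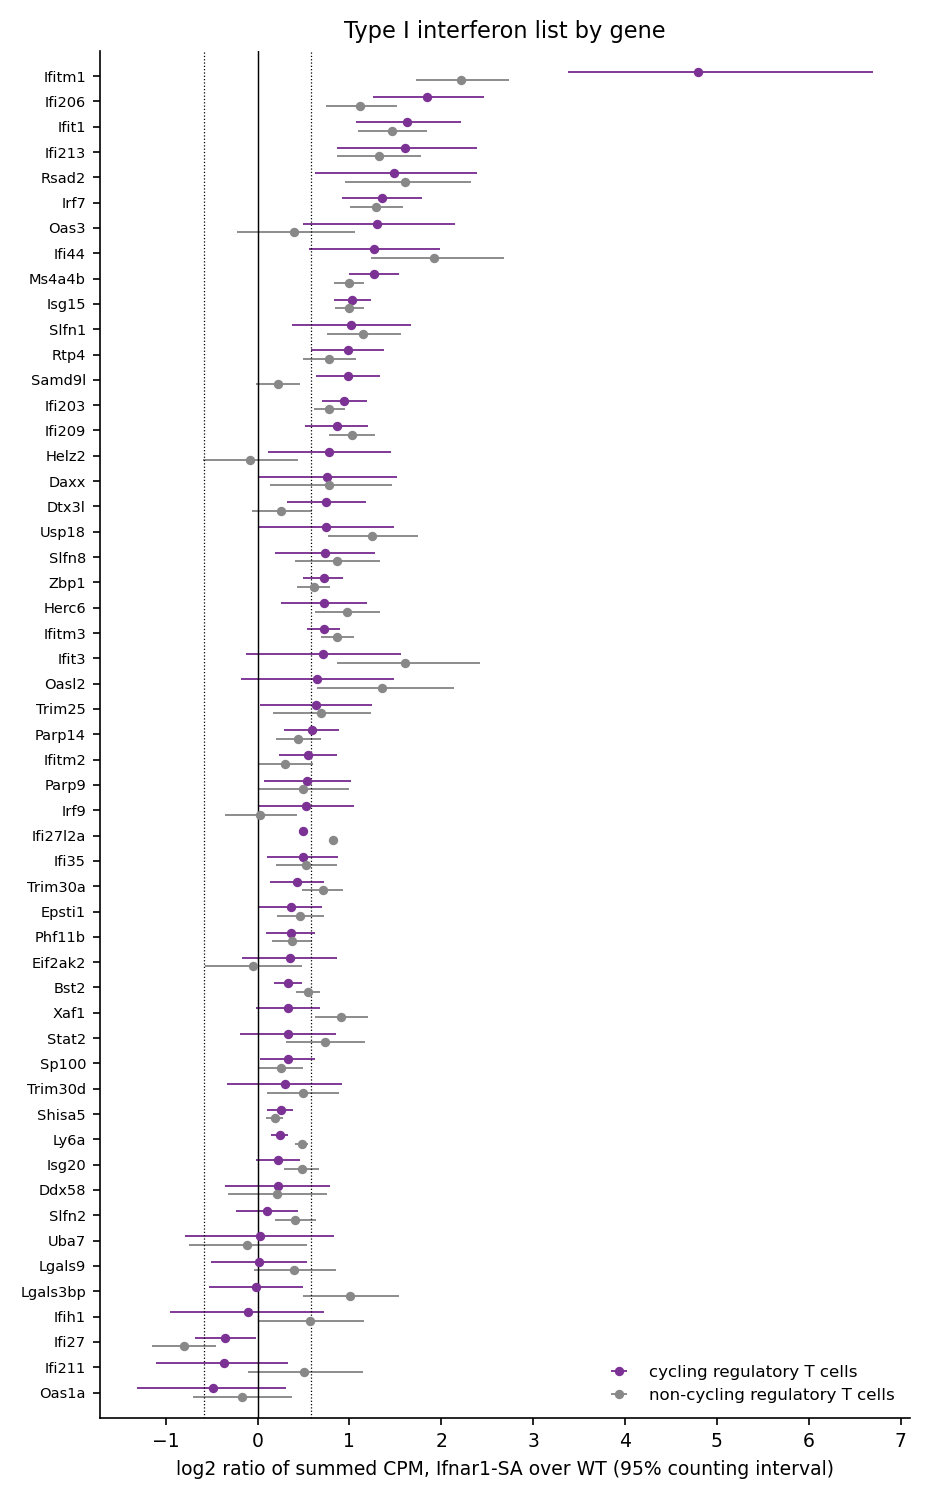
Points give the log2 ratio of summed CPM, Ifnar1-SA over WT, for type I interferon genes measured in both cycling (purple) and non-cycling (grey) regulatory T cells, with 95% counting intervals. Of the 54 such genes 1 is not shown, dotted lines mark 1.5-fold, and all cycling values but those of Oas1a, Ifi211, Ifi27, Ifih1 and Lgals3bp lie right of 0.

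The ISRE core GAAANNGAA, searched on both strands (it can overlap TTTGAA at shared letters), was found in 26 of the 45 interferon list genes with a promoter in the RefSeq table, and in 48.3% of their 58 promoters against 8.56% of all promoters. It was found in 8.11% of the promoters of G2 and mitosis genes. Isg15 at chr4:156200769-156201068 (minus strand) and Ifit1 at chr19:34640639-34640938 (plus strand) each hold 3 matches, shown in capitals, and Ifi206, whose RefSeq start lies upstream of the GENCODE one, at chr1:173491269-173491568 (minus strand) holds 1. These promoters belong to named genes that were higher in Ifnar1-SA members. That of Irf7 held no match in this window.
Isg15: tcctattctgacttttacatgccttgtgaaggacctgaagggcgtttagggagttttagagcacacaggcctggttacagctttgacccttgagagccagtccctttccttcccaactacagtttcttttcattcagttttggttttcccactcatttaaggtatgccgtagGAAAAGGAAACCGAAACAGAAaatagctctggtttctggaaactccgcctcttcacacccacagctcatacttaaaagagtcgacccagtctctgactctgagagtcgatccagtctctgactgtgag
Ifit1: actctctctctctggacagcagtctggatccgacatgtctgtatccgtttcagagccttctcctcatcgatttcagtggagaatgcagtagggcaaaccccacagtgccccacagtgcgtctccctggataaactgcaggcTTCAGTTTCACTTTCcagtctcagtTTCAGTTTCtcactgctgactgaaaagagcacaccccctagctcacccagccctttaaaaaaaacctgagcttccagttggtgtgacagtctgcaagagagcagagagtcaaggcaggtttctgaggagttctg
Ifi206: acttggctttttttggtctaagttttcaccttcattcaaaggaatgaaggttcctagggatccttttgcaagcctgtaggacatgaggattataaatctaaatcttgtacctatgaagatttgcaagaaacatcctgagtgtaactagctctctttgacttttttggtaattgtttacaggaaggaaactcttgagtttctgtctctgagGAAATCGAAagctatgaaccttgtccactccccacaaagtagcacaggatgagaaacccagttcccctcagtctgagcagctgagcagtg

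For both chains of the type I interferon receptor the counting intervals included 0. Ifnar1 had 66.9 CPM in Ifnar1-SA members and 70.9 CPM in WT members, a log2 ratio of -0.08 (-0.54 to 0.36), and a transcript count says nothing of the allele. Ifnar2 had 35.3 CPM in Ifnar1-SA and 45.7 CPM in WT (-0.37, -0.98 to 0.22). Genes that lean to interferon gamma had a median of 0.03 over 22 measured, with the immunoproteasome genes Psmb8 at 1123 CPM in Ifnar1-SA and 1108 CPM in WT and Psmb9 at 625 and 615 CPM. MHC class I genes had a median of 0.03 over 17, with B2m at 4303 CPM in Ifnar1-SA and 4352 CPM in WT. With all members the interferon gamma list held 3 genes lower past 1.5-fold. Without the Rhox5 cells 17 of its 21 measured genes were higher, with a median of 0.21. Iigp1 of that list was then higher past 1.5-fold, with a log2 ratio of 0.86 (0.62 to 1.10). Of the MHC class I genes 14 of 17 were then higher, with a median of 0.09.

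Outside the interferon list, the rule for named genes gave Lgals3, Pecam1, Plac8 and Ms4a6b among the 12 that were higher in Ifnar1-SA members. Ms4a6b, a relative of Ms4a4b, had 388 CPM in 71 of 77 Ifnar1-SA members and 187 CPM in 84 of 104 WT members, a log2 ratio of 1.05 (0.83 to 1.28). Plac8, a small cysteine-rich protein, had 530.0 CPM in 35 Ifnar1-SA members and 247 CPM in 29 WT members. After thinning, a Plac8 UMI was held by 27.3% of Ifnar1-SA and 22.1% of WT members, against 43.7% and 33.6% of macrophages, and an Ms4a6b UMI by 53.2% and 31.7% of members, against 74.5% and 65.5% of macrophages. The Plac8, Ms4a6b and Lgals3 shares of members lay below those of macrophages (71.5% and 74.4% for Lgals3), no order is read from them, and the part of free RNA was not tested. Lgals3, the lectin galectin-3, and Pecam1, an adhesion molecule, rested on few cells: 5 members held 80.9% of the Lgals3 UMIs in Ifnar1-SA and 63.0% in WT, and for Pecam1 93.0% and 41.2%. Lgals3 had 161 CPM in Ifnar1-SA and 30.5 CPM in WT, and its log2 ratio of 2.40 became 1.31 without the Rhox5 cells. Pecam1 had 92.9 and 22.5 CPM in the same order, and its ratio was -0.95 (-2.43 to 0.35) without the 5 highest members of each library.

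Among genes lower in Ifnar1-SA members, Areg (ENSMUSG00000029378, 5:91139599-91148432, plus strand, mm10) had the lowest ratio of those the rule named. It encodes amphiregulin, a growth factor through which regulatory T cells act on tissue repair. Areg had 120 UMIs (112 CPM) in 23 of 77 Ifnar1-SA members and 480 UMIs (318 CPM) in 59 of 104 WT members, a log2 ratio of -1.51 (-1.81 to -1.22), and -1.45 without the Rhox5 cells. After thinning a UMI was found in 15.6% of Ifnar1-SA members (8.32 to 25.6%) and 26.0% of WT members (17.9 to 35.5%), against 0.384% and 0.485% of macrophages. In non-cycling cells Areg was 641 CPM in Ifnar1-SA and 836 CPM in WT, a log2 ratio of -0.38 (-0.51 to -0.26), and the interval in cycling cells lay below it.

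Ctla2a (ENSMUSG00000044258, 13:60934155-60936625, minus strand), an inhibitor of cathepsin L, had 266 CPM in 54 of 77 Ifnar1-SA members and 591 CPM in 94 of 104 WT members, a log2 ratio of -1.15 (-1.35 to -0.96). Its thinned share was 31.2% (21.1 to 42.7%) in Ifnar1-SA members and 65.4% (55.4 to 74.4%) in WT members, against 3.52% and 4.61% of macrophages. Itga4, the integrin chain that pairs with Itgb7 and Itgb1 in homing, had 49.3 CPM in Ifnar1-SA and 107 CPM in WT, with log2 ratios of -1.12 in cycling, -1.06 in non-cycling and -1.46 in cycling CD8 T cells. It was thus lower in Ifnar1-SA in all 3 cell classes. After thinning, 7.79% of Ifnar1-SA and 14.4% of WT members held an Itga4 UMI, near the 12.9% and 11.0% of macrophages, and no order is read from those shares. The metallothionein Mt1, a zinc-binding protein, had 394 CPM in Ifnar1-SA and 709 CPM in WT (-0.85, -1.01 to -0.68). Its thinned share was 28.6% of Ifnar1-SA and 45.2% of WT members, near the 35.6% and 43.1% of macrophages, so no order is read from it. Mt3, its relative, had 40.0 CPM in Ifnar1-SA and 87.5 CPM in WT. Cystm1, a small membrane protein, had 22.3 CPM in Ifnar1-SA and 61.6 CPM in WT. Olfr1369-ps1, named as an olfactory receptor pseudogene, had 28.8 and 80.9 CPM in the same order, with 76.2% of the WT UMIs in 5 cells.

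For the remaining lower genes the ratio moved with the Rhox5 cells. Jun and Fos, the chains of the AP-1 factor, Ier2, an immediate early gene, Cxcl10, a chemokine induced by interferons, and Gbp2, an interferon-inducible GTPase, had log2 ratios of -1.34, -1.15, -1.03, -1.18 and -1.04 with all members. Without those cells they were -0.22, 1.02, -0.42, 0.42 and 0.51. In WT 5 cells held 94.5% of the Fos UMIs and 94.2% of the Cxcl10 UMIs. Without the Rhox5 cells 30 genes were higher past 1.5-fold, 23 of them among the 27, and 12 were lower, 11 of them among the 39. All 12 named higher genes and 6 of the 12 named lower genes stayed past the fold; Cxcl10, Fos, Gbp2, Ier2, Jun and Mt3 did not, and Mt3 kept a log2 ratio of -1.06 (-1.60 to -0.55).

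**Figure D5:**
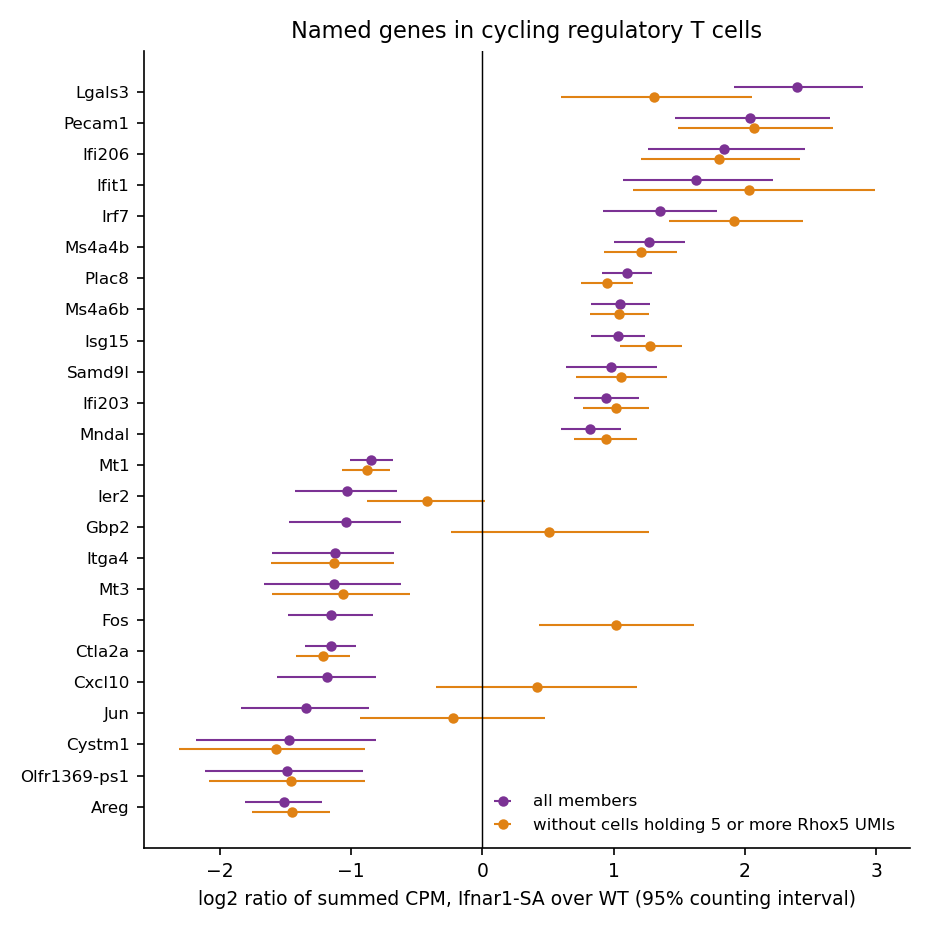
Log2 ratios of summed CPM, Ifnar1-SA over WT, of the 12 highest and 12 lowest named genes in cycling regulatory T cells with 95% counting intervals, for all members (purple) and without the cells holding at least 5 Rhox5 UMIs (orange). Fos, Cxcl10 and Gbp2 cross to the right of 0 without those cells, and Areg stays at -1.45.

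The genes of regulatory T identity were, as a list, at similar levels in both libraries. Of 25 measured genes of regulatory T identity 12 were higher in Ifnar1-SA members, none past 1.5-fold, with a median of -0.01. Il2ra had 441 CPM in Ifnar1-SA and 439 CPM in WT, and Ikzf2 1455 and 1320 CPM. Foxp3, which the rule requires in every member, had 212 and 188 CPM in the same order, and nothing is read from its level. Ctla4 was 1626 CPM in Ifnar1-SA and 1377 CPM in WT, a log2 ratio of 0.24 (0.15 to 0.33), with -0.01 (-0.09 to 0.07) in non-cycling cells. Of 10 measured costimulatory receptors 6 were higher in Ifnar1-SA members, with a median of 0.10 and none past 1.5-fold. The 3 with the most UMIs of the tumour necrosis factor receptor family were among the lower ones: Tnfrsf4 (OX40) had 1099 CPM in Ifnar1-SA and 1334 CPM in WT, Tnfrsf18 (GITR) 702 and 819 CPM, and Tnfrsf9 (4-1BB) 507 and 707 CPM, with log2 ratios of -0.28, -0.22 and -0.48. Their intervals stayed below 0, and none lay wholly past 1.5-fold. Icos, a costimulatory receptor of another family, had 648 CPM in Ifnar1-SA and 651 CPM in WT.

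Klrg1, an inhibitory receptor of mature effector cells, had 186 CPM in Ifnar1-SA members and 302 CPM in WT members (-0.70, -0.95 to -0.46), against 369 and 341 CPM in non-cycling cells. Gzmb, the protease granzyme B, had 1136 CPM in Ifnar1-SA and 900.0 CPM in WT (0.34, 0.22 to 0.45), and Il7r, the receptor chain of interleukin-7, had 237 and 226 UMIs in the same order (0.56, 0.29 to 0.83). The list of the interleukin-2 and STAT5 pathway, Il7r included, had a median of -0.22 over 15 measured genes, 5 of them higher. Glycolytic genes were 6 of 20 higher, with Ldha at 1404 CPM in Ifnar1-SA and 1668 CPM in WT and Aldoa at 1015 and 1289 CPM. No gene of the interleukin-2 or the glycolysis list was past 1.5-fold.

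Of 29 measured cyclins, kinases and inhibitors 14 were higher and none was past 1.5-fold, and Gadd45b, a stress-induced brake on the cycle, stood at 216 CPM in Ifnar1-SA and 347 CPM in WT (-0.68, -0.91 to -0.46). Suppressive and repair mediators had a median of -0.05 over 14 with 1 gene past 1.5-fold in each direction, inhibitory receptors -0.02 over 12, nucleotide synthesis -0.02 over 17, sterol synthesis -0.13 over 9 and survival and death 0.08 over 15. Chemokine receptors and integrins had -0.05 over 17, 2 of them lower past 1.5-fold. The dissociation stress list had -0.39 over 16, with 5 genes lower past 1.5-fold, and 0.03 over 14 without the Rhox5 cells. Junb of that list was 810.0 CPM in Ifnar1-SA and 1167 CPM in WT, and its log2 ratio was -0.53 with all members and -0.45 without them.

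Against their non-cycling counterparts the members differed as the rule makes them, and no comparison here is read as a finding. Of 5268 measured genes 163 were higher past 2-fold in both libraries (3.09%), 55 of them in the cell cycle lists, and 27 were lower (0.513%). The higher genes outside those lists were led by Esco2, which joins sister chromatids, Cep55, which acts at the last bridge between daughter cells, and Ska1 of the kinetochore. They included Pclaf, a partner of the replication clamp, with 770.0 CPM in cycling and 39.5 CPM in non-cycling Ifnar1-SA cells and 761 and 59.8 CPM in WT. Nucleotide synthesis genes were higher in the members for all 14 measured in both libraries, with medians of 1.05 in Ifnar1-SA and 0.72 in WT. Of all 5268 measured genes 2611 in Ifnar1-SA and 2461 in WT were higher in the members.

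Effector and receptor transcripts, like those of some other lists, were a smaller part of all transcripts in the cycling cells. The chemokine Ccl4 had 41.8 CPM in cycling and 1098 CPM in non-cycling Ifnar1-SA cells, and 51.7 and 406 CPM in WT. Il10, a suppressive cytokine, had 21.4 and 95.9 CPM in Ifnar1-SA and 14.6 and 62.6 CPM in WT, cycling cells first. Lag3, an inhibitory receptor, had log2 ratios of cycling over non-cycling cells of -2.32 in Ifnar1-SA and -1.87 in WT. All 13 measured inhibitory receptors, all 11 costimulatory receptors and all 15 genes of the interleukin-2 pathway were lower in cycling cells of both libraries. The inhibitory receptors had medians of -1.16 in Ifnar1-SA and -0.97 in WT. The drop was not particular to T cell genes: of the macrophage and MHC class II list 13 of 14 were lower in each library, with medians of -1.18 and -0.85. Of all 5268 measured genes 2657 in Ifnar1-SA and 2807 in WT were lower, with medians of -0.01 and -0.05. Regulatory T identity genes had medians of -0.83 in Ifnar1-SA and -0.84 in WT over 26 measured, and the type I interferon list -0.85 and -0.77 over 60. These are parts of all transcripts, and cycling cells held more UMIs in all.

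Cycling CD8 T cells were selected with the same cell cycle minimum, held Cd8 and lacked Foxp3. The rule thus sets the shared cycle and the Foxp3 and Cd8 differences, and neither is read as a finding. Of 5253 measured genes 99 were higher past 2-fold in the members in both libraries (1.88%) and 95 were lower (1.81%). Foxp3 is counted among the higher genes, and Cd8a and Cd8b1 among the lower ones. Beside Foxp3 and Cd4, the genes of the members were led by Klrg1, with 186 CPM in members and 6.05 CPM in CD8 T cells of Ifnar1-SA and 302 and 8.09 CPM in WT, by Izumo1r (the folate receptor 4 of regulatory T cells), by Itgb8, whose integrin activates TGF-beta, and by Lrrc32, which carries latent TGF-beta on the surface. Maf, a transcription factor, had 485 CPM in members and 33.6 CPM in CD8 T cells of Ifnar1-SA, and 542 and 16.9 CPM in WT. The members lacked the granzymes of CD8 T cells except Gzmb: Gzma, Gzmd, Gzme and Gzmk had 0 UMIs in the members of both libraries, against 31.6 to 163 CPM in cycling CD8 T cells of Ifnar1-SA and 52.3 to 107 CPM of WT. Cytotoxic and chemokine genes were higher in the members for 1 of 22 measured in Ifnar1-SA and 2 of 22 in WT. S phase genes had medians of 0.30 in Ifnar1-SA and 0.05 in WT against CD8 T cells, and those of G2 and mitosis 0.27 and 0.06. In Ifnar1-SA 27 of 32 S phase and 32 of 39 G2 and mitosis genes were higher in the members. In WT 19 of 32 and 22 of 39 were. Over all 5253 measured genes the medians were 0.08 in Ifnar1-SA and 0.10 in WT. Of these genes 3006 in Ifnar1-SA and 3190 in WT were higher in the members.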

How the data were processed

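The deposited files hold raw UMI counts for each gene and barcode, which the authors made with Cell Ranger 4, as the file headers state. The submitters' processing notes name mm10, and no source used here names the annotation. The count matrices held no other per-sample columns (0) and had totals of 62732220 UMIs in Ifnar1-SA and 55497066 in WT. Barcodes with at least 1000 UMIs, 500 genes and at most 10% mitochondrial UMIs were kept, and members were found by the UMI sums given above. Members and all 29 gene lists were chosen with earlier results of these data known.

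UMIs were summed over the cells of a class and library and given as CPM of their total. Log2 ratios carry exact conditional binomial intervals, shares Clopper-Pearson and differences of shares Newcombe intervals, all at 95% and for counting error only. Thinning drew 2000 UMIs per cell and left out shallower cells. The functions were tested on simulated data. The genes named were the 12 highest and 12 lowest ratios among genes with at least 50 CPM in either library, 30 UMIs, a UMI in 10 members of the higher library and an interval wholly outside 1.5-fold, leaving out predicted genes and those of mitochondria, ribosomes, antigen receptors and the sex chromosomes' marker list. The same count was taken for the contrasts between cell classes. In addition the 4 leading genes of each list and the interferon receptors were eligible. Ifitm1, Ifi27, Oas1a, Ifi211, Ifih1, Lgals3bp, Il1rl1 and Casp8 fall outside that rule and were named after their values were seen. Doublets stayed in: Scrublet set automatic limits that marked 2 Ifnar1-SA cells and none in WT, too few to be used, and removing its top scores was an alternative. Gene positions came from GENCODE M21 (mm10) and promoters from RefSeq (GRCm38.p6). Python 3.11.15, numpy 2.4.6, scipy 1.17.1, pandas 2.3.3 and scanpy 1.11.5 were used. The alternatives, among them other cell filters, cut-offs, scalings and gene floors, are compared in the closing section. A few genes are not reported here.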

Additional observations from a re-analysis of the deposited data

Results flagged for a closer look

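For 5 genes of the lists the genotype difference in cycling regulatory T cells had the opposite sign to that in non-cycling ones, with both counting intervals clear of 0. The difference between these differences was not tested. Il1rl1, the receptor of interleukin-33, had a log2 ratio of Ifnar1-SA over WT of 0.58 in cycling and -0.77 in non-cycling cells, and 0.84 in cycling cells without the Rhox5 cells. Only 12 Ifnar1-SA and 20 WT members held an Il1rl1 UMI. Pcna had 0.24 and -0.73, and -0.20 in cycling cells when each member was thinned to 3000 UMIs. Tnfrsf18 had -0.22 and 0.13, and Casp8, an initiator of cell death, -0.39 and 0.46. Cxcl10 had -1.18 and 0.71, but 0.42 in cycling cells without the Rhox5 cells.

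Y-linked transcripts, which the report uses only to set cells apart, gave 14 UMIs in Ifnar1-SA members and 1 in WT members. Among Ifnar1-SA cells with a UMI of Xist or a Y-linked gene, Y-linked UMIs only were held by 10.8% of cycling (4.78 to 20.2%) and 3.45% of non-cycling regulatory T cells (1.79 to 5.95%).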

How the results depend on the processing

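The lower cycling share in Ifnar1-SA kept its direction under all 11 alternatives that give one, between -17.4 and -13.2 points, with intervals below 0. No alternative raised the limit of macrophage UMIs, which left out unequal parts of the 2 libraries. The range leaves out the comparisons by depth in the Results. With regulatory T cells thinned to the lower depth used there, the gap was -8.8 points (-14.5 to -3.3). It was -4.7 points (-15.0 to 2.2) at 1000 to 3000 UMIs, -11.4 at 3000 to 6000 and -18.8 above 6000. The interval of the shallowest cells thus included 0. The type I interferon median of 0.57 stayed above 0 in every alternative: 0.67 with a mitochondrial maximum of 5%, 0.69 and 0.61 with cell cycle minimums of 2 and 5, 0.42 with Foxp3 of at least 2, 0.46 with macrophage UMIs under 3, 0.51 without the top Scrublet scores, 0.61 without the Rhox5 cells (chosen after seeing the data), 0.44 with members thinned to 3000 UMIs, 0.44 as a mean of the members' own CPM, 0.64 without mitochondrial and ribosomal UMIs, 0.50 with a floor of 50 CPM and 0.72 with no floor. The 27 genes higher past 1.5-fold became 16 when thinned, 12 without the 5 highest members of each gene, 15 with the floor of 50 CPM and 60 with no floor. The 39 lower genes became 17 with the 5% maximum, 19 with a cell cycle minimum of 5, 12 without the Rhox5 cells, 18 when thinned, 15 without the 5 highest members, 22 with the higher floor and 87 with none. Counts against non-cycling and CD8 T cells stayed within 1.5 times.

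Of 1359 gene values under the alternatives, 14 turned sign where the interval with all members was clear of 0: Pecam1 to -0.95, Cxcl10 to 0.40 and Fos to 0.93 without the 5 highest members; Cxcl10 to 0.42, Fos to 1.02 and Gbp2 to 0.51 without the Rhox5 cells; Gbp2 also to 0.51 without the 5 highest members; Cxcl10 to 0.54, Gbp2 to 0.06, Ikzf2 to -0.08 and Pcna to -0.20 when thinned; Cxcl10 to 0.01, Gbp2 to 0.14 and Ikzf2 to -0.06 by the mean of members. Of the list medians 8 did where the median was over 0.1 in size and the summed interval clear of 0: histones to 0.03 with no floor, dissociation stress to 0.03 without the Rhox5 cells, the macrophage list to -0.22, -0.20, -0.06 and -0.12 with Foxp3 of at least 2, macrophage UMIs under 3, the mean of members and without the 5 highest, and the tumour and stroma list to 1.57 and 1.48 with the 5% maximum and a cell cycle minimum of 5. Where these bars were not met, 72 gene values and 43 list medians turned sign as well, among them the S phase and G2 and mitosis medians with a cell cycle minimum of 2. The cause was not tested. No paired analysis was possible because each genotype has 1 library.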
